A study of Homo sapiens with 6 samples.

Results

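The open regions of the major histocompatibility complex (MHC) are described here in HCT116, a human colorectal carcinoma line, after depletion of the nuclear protein NuMA and in wild-type cells. Members were all merged accessible regions on chromosome 6 between 28.48 and 33.45 Mb (build hg19, as all positions here), 255 of 58926 in all. They were taken by position alone, from 6 peak lists of ATAC-seq, an assay in which a transposase inserts adapters into accessible DNA, and peaks of the 6 lists that overlapped by at least 1 bp were merged. By the midpoint of the region, 41 members fell in the extended class I segment (28.48 to 29.6 Mb), 112 in class I (29.6 to 31.5 Mb), 45 in class III (31.5 to 32.2 Mb) and 57 in class II with its flank (32.2 to 33.45 Mb). The NuMA-depleted group and the wild-type group had 3 libraries each. The sample titles hold the abbreviations AID and NC, which were not expanded here. Beyond these, the labels give the depleted cells no clone, agent or time of depletion. They do not say whether replicates were separate cultures. The p-values therefore reflect the spread among these libraries alone, which may be technical. NuMA is a structural protein of the interphase nucleus and of the spindle poles, and the series asks what it does for local chromatin architecture.

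The MHC is among the most gene-dense stretches of the human genome. Class I molecules present peptides from inside the cell on nearly all nucleated cells, and class II molecules present captured peptides mainly on professional antigen-presenting cells, where the transactivator CIITA drives their genes. The class III segment between them codes for complement components, tumour necrosis factor, heat shock proteins and many broadly used genes, while the extended class I segment holds zinc finger genes and a large cluster of olfactory receptor genes, which are silent in most cell types. In RefSeq's order of genes on GRCh38.p14, 22 protein-coding genes, 14 of them olfactory receptor genes, lie from GPX6 to GABBR1. From HLA-F to MICB there are 49, with 6 HLA genes, and from DDX39B to NOTCH4 there are 58. From HLA-DRA to KIFC1 there are 34, with 13 HLA genes. These stretches name the kind of gene found in each segment. They come from another build and were not matched to the regions, so no region below carries a gene name, and the sequence of the regions was not analysed here.

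The deposited lists held 21783 to 45892 peaks in NuMA-depleted libraries and 32503 to 38685 in wild-type libraries, with NuMA-depleted replicate 3 the shortest and replicate 2 the longest. Depth in reads is unknown. An estimate of relative depth was made as the lowest background recovered from the folds and p-values of a list, divided by its narrowest peak width, and scaled to a mean of 1. It was 1.07 to 1.21 in NuMA-depleted and 0.762 to 0.975 in wild-type libraries, so depth, as estimated, and group cannot be told apart. The estimate did not follow list length throughout. NuMA-depleted replicate 2, with the longest list, had the highest value, but replicate 3, with the shortest, had 1.11, above every wild-type library. Where a region is missing from a library, no peak was called at the threshold used, which is not evidence of closed chromatin.

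Peaks were dense in every segment of the MHC, most of all in class III, though not along its whole length. Their number roughly followed the length of the list. The MHC held 185, 207 and 109 peaks in NuMA-depleted replicates 1, 2 and 3, and 153, 183 and 152 in wild-type replicates 1, 2 and 3. The lowest and the highest count both came from NuMA-depleted libraries, and the wild-type counts lay between them. As a density this was 37.2, 41.6 and 21.9 peaks per Mb in NuMA-depleted libraries and 30.8, 36.8 and 30.6 in wild-type libraries. On the rest of chromosome 6 the same libraries had 11.9, 14.3 and 6.94 peaks per Mb after NuMA depletion and 11.3, 12.2 and 9.82 in wild type, lower than in the MHC in 6 of 6 libraries. This contrast between positions is a description without a test. Peaks covered 1.06% to 2.64% of the MHC in NuMA-depleted libraries and 1.69% to 1.93% in wild-type libraries.

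Class III was the densest segment in each of the 6 lists. It held 52.9, 58.6 and 34.3 peaks per Mb in NuMA-depleted replicates 1, 2 and 3, against 40, 48.6 and 41.4 in wild-type replicates 1, 2 and 3. Class I followed, with 41.6, 49.5 and 27.4 peaks per Mb in NuMA-depleted and 38.4, 42.1 and 35.3 in wild-type libraries. Class II with its flank had 35.2, 32.8 and 15.2 in NuMA-depleted and 25.6, 33.6 and 28.8 in wild-type libraries. The extended class I segment came last, with 22.3, 27.7 and 12.5 in NuMA-depleted and 17.9, 24.1 and 17.9 in wild-type libraries. The order of the segments was thus the same in all 6 lists, whereas the groups overlapped in every segment.

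**Figure D1:**
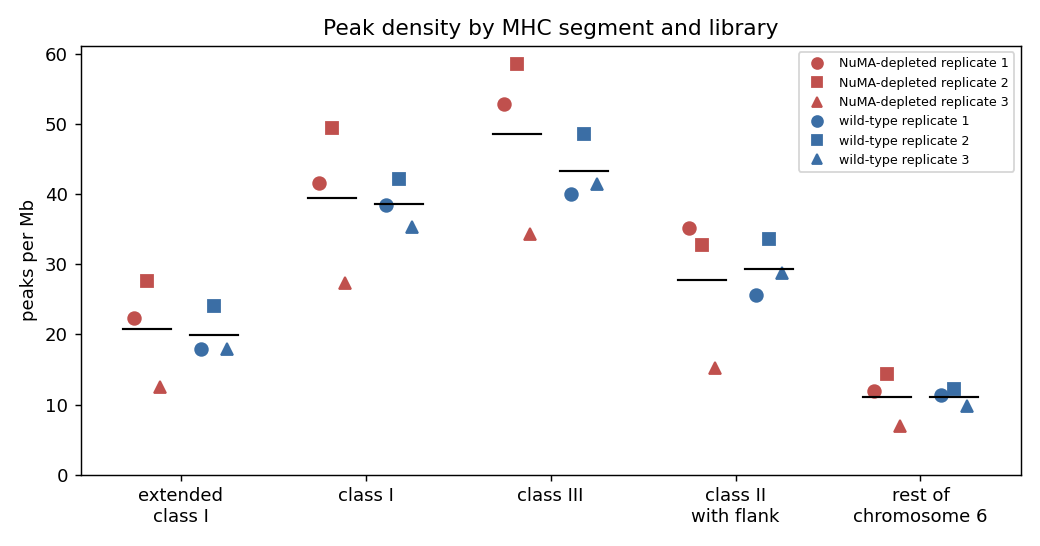
Peaks per Mb (vertical axis) in the 4 MHC segments and on the rest of chromosome 6, with 1 symbol per library, NuMA-depleted in red left of wild type in blue, and a bar at each group mean. Class III reached 58.6 peaks per Mb in NuMA-depleted replicate 2, and NuMA-depleted replicate 3 had the lowest density of all libraries in every segment.

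The share of a list's peaks that lay in the MHC scales for unequal list lengths, though it need not remove every effect of length. It averaged 0.477% ± 0.0248 after NuMA depletion and 0.457% ± 0.0229 in wild type (SD, n = 3 each), a difference of 0.0202 percentage points with p = 0.4 (exact permutation test, two-sided). The size of this difference rested on single libraries. It was 0.00711 without wild-type replicate 1, 0.00878 without NuMA-depleted replicate 3 and 0.0334 without NuMA-depleted replicate 2, and 0.000987 with peaks of −log10 q of 5 or more. With lists of equal length it was 0.0107. The share of covered length was 0.475% ± 0.0137 after NuMA depletion and 0.469% ± 0.0164 in wild type (SD, n = 3 each), with p = 0.6 in the same exact test. Neither difference exceeded the spread between libraries. With 20 assignments of 3 against 3 the smallest p such a test can give is 0.10.

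Class III was the segment whose share differed most between the groups. It took 0.0962%, 0.0893% and 0.110% of the list in NuMA-depleted replicates 1, 2 and 3, against 0.0789%, 0.0879% and 0.0892% in wild-type replicates 1, 2 and 3. All 3 NuMA-depleted values lay above all 3 wild-type values, but NuMA-depleted replicate 2 and wild-type replicate 3 nearly touched. The means were 0.0986% ± 0.0106 after NuMA depletion and 0.0853% ± 0.00563 in wild type (SD, n = 3 each), with exact p = 0.1, the smallest this design allows, and 0.4 after Benjamini-Hochberg adjustment over the 4 segments. Of 2022 bins of 1 Mb over the genome, 6.08% separated the groups in this direction, and 1 of 4 segments is read against that share. Without NuMA-depleted replicate 3 the class III difference was 0.00744 in place of 0.0132 percentage points (exact p = 0.2). At a minimum −log10 q of 5 the class III shares of the groups overlapped, with a difference of 0.00937 (exact p = 0.6). With lists of equal length the difference was 0.0122 (exact p = 0.1). In the other segments the groups overlapped, with 0.0656% ± 0.00172 against 0.0626% ± 0.00679 in extended class I, 0.216% ± 0.0194 against 0.206% ± 0.00059 in class I and 0.0970% ± 0.0151 against 0.103% ± 0.0113 in class II with flank (NuMA-depleted before wild type, SD, n = 3 each, adjusted exact p = 1 for each).

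The members were unevenly spread within the segments, and a pair of long stretches was sparse. Regions lay 51.3 per Mb over the whole interval, with a median gap of 11.4 kb to the next, against 18.9 per Mb on the rest of chromosome 6 and a median gap of 19.3 kb over all merged regions. Of 254 gaps within the MHC, 6 were over 100 kb, 3 of them in class II with flank and 3 in extended class I. That is 2.36%, below the 8.61% of gaps over all merged regions, so gaps of this length are not particular to the MHC. The longest, 175.709 kb, ran from 32578092 to 32753800 in class II. The other gaps over 100 kb in class II, of 157.577 and 136.195 kb, ran from 32223710 to 32381286 and from 32441468 to 32577662. Those in extended class I were of 148.373, 119.736 and 101.195 kb, the first of them from 29114144 to 29262516. The busiest of 50 windows of 100 kb held 11 regions, and 3 windows held none.

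In class II the sparse stretch from 32223710 to 32753800, 530 kb long, held 6 regions, and 0 of them were called in all 6 libraries. The stretch was not an unbroken run of gaps, since the window from 32380001 to 32480000 within it held 5 of these regions. The other 51 members of the segment included 18 called in every library, and these 18 all lay beyond the right end of the stretch. The member at 32577663 to 32578091 stood alone between a pair of these gaps. Its fold enrichment (signal over local background at the peak, as the authors' caller gave it) was 5.89 and 6.14 in NuMA-depleted replicates 1 and 2, against 5.27 and 4.58 in wild-type replicates 1 and 2. It was not called in replicate 3 of either group. The member at 32383322 to 32383702 was called in the same 4 libraries, with folds of 5.47 and 5.52 in NuMA-depleted and 6.69 and 5.26 in wild-type libraries. Another member, at 32407500 to 32407848, had folds of 8.57 and 9.28 in NuMA-depleted replicates 1 and 2 and no call elsewhere. The remaining 3 were each called in 1 wild-type library.

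In extended class I the sparse stretch ran from 29040153 to 29557376, 517 kb long, and held 4 regions with a median width of 275 bp. Each was called in a single library. The regions at 29382521 to 29382797 and 29483993 to 29484279 came from NuMA-depleted replicates 1 and 2, with folds of 7.37 and 8.01. Those at 29113871 to 29114143 and 29262517 to 29262784 came from wild-type replicate 1, with folds of 4.22 and 4.74, and rested on summit pileups of 7 and 8 fragments. Pileups were recovered from fold and p, and their unit, called fragments throughout, is not given in the sources. None of the 4 regions recurred in a second library. The 8 members of the segment called in all 6 libraries lay on the left of this stretch. Both stretches were picked after the gaps were seen, as the runs of gaps of at least 70 kb, so their low density is a description.

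**Figure D2:**
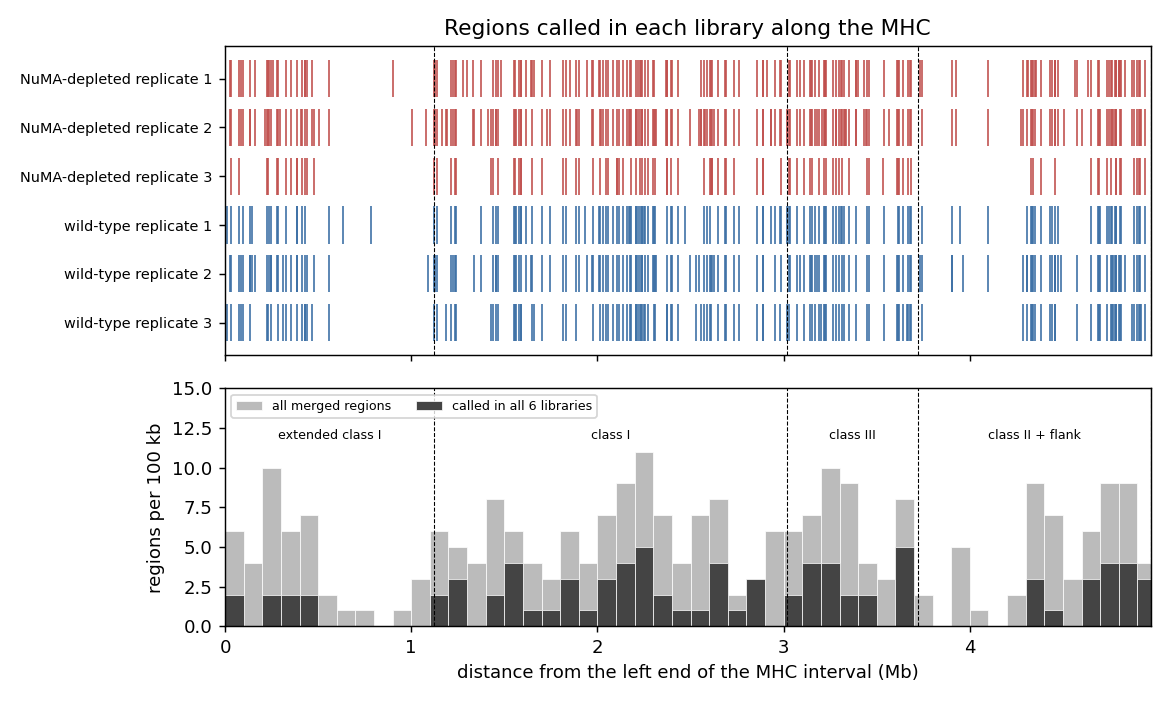
Upper panel, the midpoints of merged regions called in each library (NuMA-depleted in red above wild type in blue) along the MHC, as distance in Mb from its left end. Lower panel, regions per window of 100 kb (the last window is cut at the right end), all in grey and those called in all 6 libraries in black, with dashed lines at the segment limits. The sparse stretches of extended class I and class II appear in all 6 rows.

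Of the 255 regions, 186 (72.9%) were called in at least 1 library of each group, near the 67.0% of all merged regions. Calls in every library were made at 86 (33.7%), beside 28.9% of all merged regions, and calls in a single library at 56 (22.0%), beside 25.1%. The share called in every library was 42.2% in class III (19 of 45), 36.6% in class I (41 of 112), 31.6% in class II with flank (18 of 57) and 19.5% in extended class I (8 of 41). NuMA-depleted replicate 3 was the only library without a call at a further 26 members, which is 10.2%, against 8.69% of all merged regions. The median width was 872.5 bp where all 6 libraries had a call and 303.5 bp where a single library did, close to 914 and 296 bp over all merged regions. Single-library members made up 29.3% of extended class I (12 of 41) and 26.3% of class II with flank (15 of 57), and 17.9% of class I (20 of 112) and 9 of 45 in class III. NuMA-depleted replicate 2, the library with the longest list, had 24 of the 56 single-library members, and NuMA-depleted replicate 3 and wild-type replicate 3 had 3 each. Over all merged regions these libraries had 5630, 379 and 1367 of 14800 single-library regions.

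Only 1 member was called in all 3 NuMA-depleted libraries and in 0 wild-type libraries, beside 0.625% of all merged regions. It lay in class III at 31760609 to 31761098, 490 bp wide. Its fold was 4.94, 4.93 and 5.03 in NuMA-depleted replicates 1, 2 and 3, from summit pileups of 25, 32 and 20 fragments. In each of the 3 lists it ranked below the middle by q, at percentiles 33.6, 42.2 and 37.0. The nearest peak in wild-type replicates 1, 2 and 3 was 2674, 2627 and 2673 bp away. The libraries that called it were also the 3 with the highest estimated depth, and the part of depth in this was not tested. With equal numbers of peaks per library it no longer counted as NuMA-depleted-only, and a different member, in class I at 30749461 to 30750436, did. Without NuMA-depleted replicate 3 the count was 7 members, and over all merged regions it was 2691 in place of 368. Without wild-type replicate 2 it was 2 members of 703 regions, and without wild-type replicate 3 it was 3 of 532.

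No member, 0 of 255, was called in all 3 wild-type libraries and in no NuMA-depleted library, beside 0.592% of all merged regions. Without NuMA-depleted replicate 2 the count was 5 members, and over all merged regions it was 1287 in place of 349. Without wild-type replicates 1, 2 and 3 it was 2 members of 786 regions, 4 of 616 and 1 of 976. Calls in at least 2 libraries of one group and none of the other numbered 7 for NuMA-depleted cells, beside 5.04% of all merged regions, and 6 for wild-type cells, beside 2.85%. The NuMA-depleted 7 were 2.75% and the wild-type 6 were 2.35% of the members. Of the NuMA-depleted 7, 4 lay in class I, 2 in class III and 1 in class II with flank. Of the wild-type 6, 3 lay in extended class I, all left of its sparse stretch, and 3 in class I. Folds at the wild-type 6 ran from 3.87 to 7.38, and those at the NuMA-depleted 7 from 3.77 to 9.28.

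Regions of the MHC had moderate folds. The median fold of the peaks was 6.84, 6.26 and 5.44 in NuMA-depleted replicates 1, 2 and 3, against 7.01, 6.63 and 6.08 over those whole lists. In wild-type replicates 1, 2 and 3 it was 6.36, 6.89 and 6.22, against 6.57, 7.38 and 6.88 over the whole lists. The MHC median was lower than that of its own list in 6 of 6 libraries, as a description without a test. The highest fold of any MHC peak was 12.7, 11.7 and 9.997 in NuMA-depleted and 11.9, 14.7 and 14.99 in wild-type libraries.

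Since a fold belongs to its own list, it was compared between libraries as a percentile among the 17009 regions that every library called. The 86 members called in all 6 libraries had median percentiles of 39.0, 29.9 and 41.2 in NuMA-depleted and 32.4, 33.0 and 37.98 in wild-type libraries, all below the middle. The mean percentile over libraries was below 50 in 58 of the 86 (67.4%), beside 49.4% of all regions called in all 6 libraries. It was 75 or more in 5 and 90 or more in 0 of the 86, whereas 3196 and 695 of the 17009 reached those levels. The 8 members of extended class I all had a mean below 50, as had 14 of 19 in class III, 25 of 41 in class I and 11 of 18 in class II with flank. This level depended on the measure. With percentiles of −log10 q in place of fold, segment medians averaged 48.6 and 49.5 in class III and 50.2 and 53.8 in class II with flank. They averaged 40.6 and 39.0 in class I and 15.3 and 25.3 in extended class I (NuMA-depleted before wild type).

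No segment's median percentile separated the groups. In extended class I it was 20.6, 14.1 and 22.8 in NuMA-depleted and 40.3, 28.9 and 19.3 in wild-type libraries, the widest difference of the 4 segments, with means of 19.2 ± 4.53 against 29.5 ± 10.5 (SD, n = 3 each, exact p = 0.3, adjusted over the segments 0.667). The groups overlapped through wild-type replicate 3, and the difference of -10.3 became -1.22 without wild-type replicate 1 and -0.485 with lists of equal length. That of class I, 4.00, was 7.25 without NuMA-depleted replicate 2, 2.26 without NuMA-depleted replicate 3 and 0.0353 with peaks of −log10 q of 5 or more. Leaving out a library also enlarges the set of regions, to those called in the remaining 5. Class I had 40.6 ± 6.11 after NuMA depletion and 36.6 ± 1.24 in wild type, class III had 34.2 ± 6.19 after NuMA depletion and 35.5 ± 7.38 in wild type, and class II with flank had 30.2 ± 9.90 after NuMA depletion and 37.1 ± 5.45 in wild type (SD, n = 3 each, adjusted exact p = 0.667, 0.9 and 0.667). In class II the NuMA-depleted spread came from replicate 3, at 18.8 beside 34.5 and 37.1 in replicates 1 and 2, and without it the difference turned to 1.09. In class III it turned to 3.16 without NuMA-depleted replicate 3, and also turned positive without NuMA-depleted replicate 2 and without wild-type replicate 3, at 2.22 and 2.43.

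**Figure D3:**
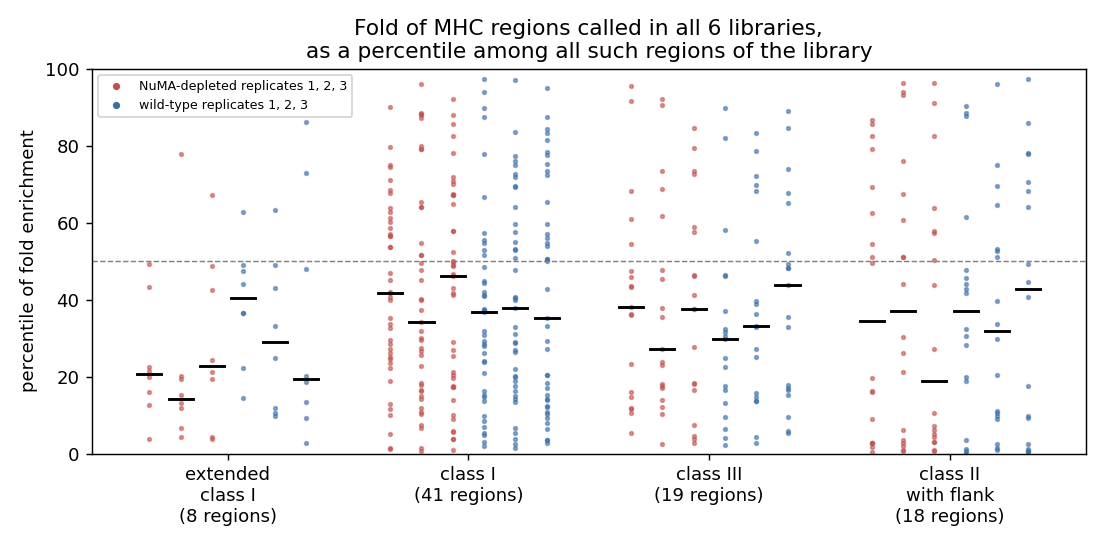
Percentile of fold enrichment (vertical axis, among the 17009 regions called in all 6 libraries) for the members called in all 6 libraries, by segment, with a column of points for each library (NuMA-depleted replicates 1 to 3 in red, then wild-type replicates 1 to 3 in blue). Black bars are medians, all below the dashed line at 50.

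In extended class I the strongest members called in every library, ranked by the weakest −log10 q among the 6, lay at 28891302 to 28892337, 28510418 to 28510946 and 28863366 to 28864436. The first had folds of 6.63, 6.49 and 6.09 in NuMA-depleted replicates 1, 2 and 3, against 6.97, 8.71 and 6.20 in wild-type replicates 1, 2 and 3. The groups overlapped there, and 22 to 44 fragments after NuMA depletion and 21 to 31 in wild type piled up at its summit. The second had folds of 6.23, 9.70 and 6.37 in NuMA-depleted and 7.53, 7.74 and 9.06 in wild-type libraries. The third had only 6.51, 5.90 and 5.16 in NuMA-depleted and 5.62, 6.13 and 5.34 in wild-type libraries. The widest member, at 28804644 to 28807013, covered 2370 bp, more than any other of the MHC. Its folds were low, at 5.96, 4.88 and 4.10 in NuMA-depleted and 7.36, 7.20 and 4.38 in wild-type libraries, again with overlap. Breadth and fold did not go together in this member, whose percentiles were 12.7, 4.42 and 4.26 in NuMA-depleted and 44.0, 24.9 and 2.61 in wild-type libraries.

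In class I the strongest lay at 30034407 to 30035339, 30312643 to 30313394 and 30719871 to 30720656. The first had folds of 9.29, 8.22 and 8.52 in NuMA-depleted replicates 1, 2 and 3, against 10.4, 9.20 and 7.86 in wild-type replicates 1, 2 and 3. The wild-type values spread more widely and enclosed those of the NuMA-depleted libraries. The second had 8.87, 11.6 and 8.73 in NuMA-depleted and 11.03, 9.94 and 9.22 in wild-type libraries. The widest of those called in every library, at 30523723 to 30525384, covered 1662 bp, with 7.70, 7.29 and 7.26 in NuMA-depleted and 6.49, 8.63 and 6.98 in wild-type libraries.

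In class III the strongest lay at 31587757 to 31588883, 32162935 to 32164393 and 31830382 to 31831784. The first had folds of 8.02, 6.91 and 7.62 in NuMA-depleted replicates 1, 2 and 3, against 7.46, 7.35 and 8.77 in wild-type replicates 1, 2 and 3. The second had 6.76, 6.65 and 6.79 in NuMA-depleted and 7.48, 8.15 and 6.04 in wild-type libraries. The last of these reached 9.27, 9.41 and 8.01 in NuMA-depleted and 6.68, 9.98 and 9.92 in wild-type libraries, where wild-type replicate 1 stood alone below the others. The widest, at 31619527 to 31621082, covered 1556 bp. It had folds of 6.23, 6.33 and 6.25 in NuMA-depleted and 6.29, 7.95 and 7.74 in wild-type libraries, so that the NuMA-depleted libraries were nearly alike and wild-type replicate 1 lay among them.

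The strongest member of the whole MHC by this ranking was in class II with flank. At its position, 33421917 to 33422609, the fold was 9.99, 11.1 and 9.08 in NuMA-depleted replicates 1, 2 and 3, against 10.2, 10.4 and 11.9 in wild-type replicates 1, 2 and 3. The weakest −log10 q there was 21.9, and 36 to 62 fragments after NuMA depletion and 41 to 47 in wild type stood at its summit. At 32862021 to 32862975 the folds were 10.6, 11.2 and 8.25 in NuMA-depleted and 10.1, 12.98 and 8.80 in wild-type libraries, and in both groups replicate 3 was lowest. The widest of the segment, at 33216147 to 33217627, covered 1481 bp, with 8.49, 7.83 and 6.80 in NuMA-depleted and 6.62, 8.15 and 9.41 in wild-type libraries. The folds of these 3 overlapped between the groups. The other strong member of the segment, at 33359044 to 33359952, separated the groups by percentile but not by fold, with 85.6, 76.1 and 96.2 in NuMA-depleted and 42.7, 69.6 and 70.6 in wild-type libraries (limma, adjusted p = 0.599).

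Whether single members changed rank was tested over all 17009 shared regions with limma, on normal scores of the fold rank, a scale on which 1 unit is 1 SD of the ranked regions. No member passed an adjusted p of 0.05 (0 of 86 by limma), beside 0.00588% of all shared regions, and 7 members had an unadjusted p under 0.05, beside 8.09%. The smallest adjusted p among members was 0.374 by limma. NuMA-depleted ranks were higher in 44 and lower in 42 of the 86, with a median difference of 0.01, against 8448 and 8561 of all shared regions and a median of -0.0039. The percentile ranges of the groups did not overlap in 3 members that were higher (3.49%, beside 6.75%) and in 4 that were lower (4.65%, beside 6.21%). These shares are below the background, and nothing about the MHC is read from them. Beside 3 of the members described next and the one at 33359044, they were 29720284 in class I, which was higher, and 30069619 in class I and 33239052 in class II with flank, which were lower, named after their values were seen.

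The members with the smallest p in either direction all lay in class I and are given as values, since none passed. At 30364568 to 30365057 the fold was 8.44, 7.63 and 6.37 in NuMA-depleted replicates 1, 2 and 3, against 11.9, 10.4 and 10.2 in wild-type replicates 1, 2 and 3, with no overlap. As a percentile this was 47.4 ± 6.84 after NuMA depletion and 86.8 ± 10.6 in wild type (SD, n = 3 each), a rank difference of -1.32 (SE 0.417, adjusted p = 0.374 by limma). At 30594333 to 30594906 the fold was 7.36, 8.37 and 5.52 in NuMA-depleted and 10.1, 11.1 and 8.63 in wild-type libraries, again without overlap, and the rank difference was -1.12 (SE 0.409, adjusted p = 0.452 by limma).

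In the other direction, the member at 30495405 to 30496218 had folds of 7.44, 6.35 and 6.11 in NuMA-depleted replicates 1, 2 and 3, against 4.67, 4.69 and 5.42 in wild-type replicates 1, 2 and 3. Its summit held 17, 17 and 12 fragments in NuMA-depleted and 8, 8 and 9 in wild-type libraries, so that few fragments stood behind the folds. The rank difference was 1.15 (SE 0.408, adjusted p = 0.436 by limma). At 30749461 to 30750450 the folds were 9.66, 6.83 and 5.11 in NuMA-depleted and 6.07, 5.04 and 5.00 in wild-type libraries. These folds overlapped, NuMA-depleted replicate 1 stood far above the rest, and the rank difference was 1.09 (SE 0.447, adjusted p = 0.531 by limma). Without NuMA-depleted replicate 1 it was 0.62 (adjusted p = 0.832 by limma).

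**Figure D4:**
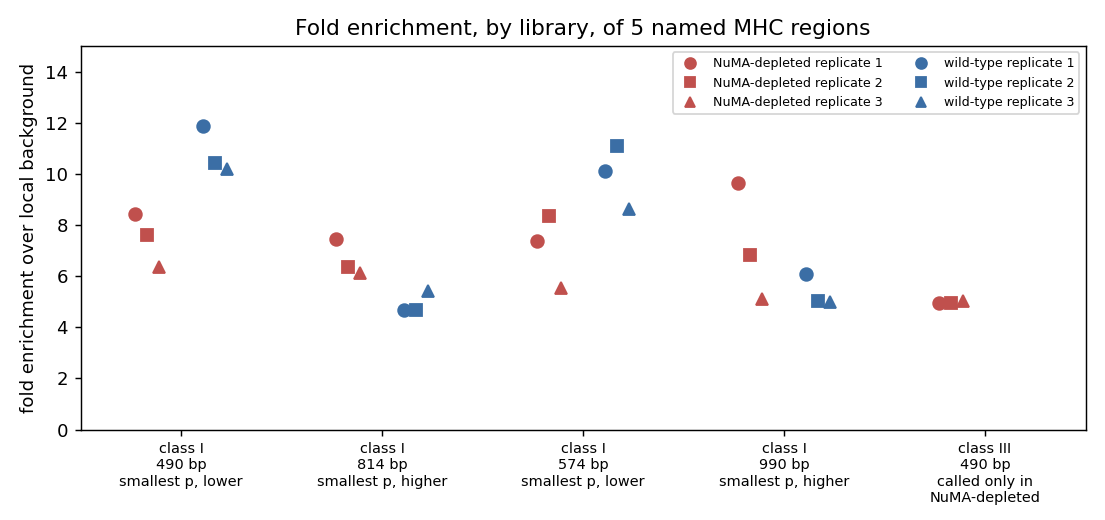
Fold enrichment over local background (vertical axis, each list's own value) of 5 members, by library, with NuMA-depleted in red left of wild type in blue. The 4 class I members are, from left to right, those at 30364568, 30495405, 30594333 and 30749461, and the class III member at 31760609 has symbols for NuMA-depleted libraries only, at 4.93 to 5.03.

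In bins of 1 Mb, no bin along the MHC passed an adjusted p of 0.05 for its share of peaks. Among 2022 bins over the genome 0 passed by limma (0% called), and 114 had an unadjusted p under 0.05. The densest of the 6 bins that touch the MHC, from 30 to 31 Mb in class I, held 46, 51 and 31 peaks in NuMA-depleted and 48, 48 and 40 in wild-type libraries. It was number 27 of 2022 by mean count, where the median bin had 14.8 peaks. The bin from 31 to 32 Mb, number 41, held 44 ± 13.7 peaks after NuMA depletion and 39.3 ± 4.04 in wild type (SD, n = 3 each), a log2 difference in share of 0.18 (SE 0.1, adjusted p = 0.881 by limma). The bin from 29 to 30 Mb, which includes the sparse stretch of extended class I, was number 1049 and held 17, 22 and 8 peaks in NuMA-depleted and 12, 16 and 11 in wild-type libraries. Its log2 difference in share, 0.24 (SE 0.16, adjusted p = 0.890 by limma), was the highest of the 6. The bins from 28, 32 and 33 Mb held 36.3, 22.3 and 36.7 peaks on average in NuMA-depleted and 36.3, 23.7 and 39 in wild-type libraries, with log2 differences of 0.04, -0.09 and -0.10, and that from 30 Mb differed by -0.04 (adjusted p from 0.939 to 0.995 by limma).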

How the data were processed

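Per the submitters' processing notes, the tools were Picard, Trim Galore and, in version 2.4.1, Bowtie2, and the build was hg19. The peak names record a macs2 folder. Not given in the sources used here are the caller's settings, the read filters and any shift for the transposase. The deposited files hold 1 peak list per sample with a fold enrichment (linear ratio to local background), −log10 of p and of q (the q at least 2.00) and a score, which was not used, all as the authors' caller wrote them. Groups came from the genotype label. The members and lists were chosen with earlier results of these data known.

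Peaks were placed in a segment by summit and merged regions by midpoint. Shares of peaks per library were compared with exact permutation tests. Bins of 1 Mb with a mean of at least 5 peaks (log2 share, pseudocount 0.5, mean trend) and normal scores of fold ranks went into limma (version 3.58.1, under R 4.3.3), with Benjamini-Hochberg adjustment over all rows. The fits were also run on simulated data whose noise was set by hand, which does not measure power in these libraries. Pileup at a summit was recovered from fold and p under a Poisson model, with whole numbers within 0.01 on the −log10 p scale for at least 99.986% of each list. Without the caller's settings it is not known whether its unit is a fragment or a read. The depth estimate takes the narrowest peak of a list as a stand-in for its fragment length, an assumption that was not tested. Regions named were those called in 1 group only, the 3 strongest and the widest of each segment among those called in all 6 libraries, the 2 with the smallest p in each direction of the rank fit and the 1 Mb bins. The members of the sparse stretches were chosen after their values were seen. Alternatives were each library left out in turn, lists shortened to the 21783 strongest peaks by p, a minimum −log10 q of 5, windows of 500 bp on summits, presence in 2 of 3 libraries, any overlap at segment edges, a pseudocount of 2, no minimum on bins, bins of 250 kb, a replicate block and ranks of −log10 q. The rest was done in Python 3.11.15 (scipy 1.17.1, pandas 2.3.3, numpy 2.4.6, and matplotlib 3.10.9 for figures).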

Additional observations from a re-analysis of the deposited data

How the results depend on the processing

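Each group had 3 libraries, list lengths differed by library and estimated depth differed by group. Differences may have been missed, and power was not measured. The difference in the MHC share of peaks was positive under all 9 alternatives, which reuse the same libraries and are not independent. Any overlap at segment edges left the difference unchanged. Over the alternatives it lay between 0.000987 and 0.0334 percentage points. The class III difference lay between 0.00744 and 0.0179, and that of class II with flank between -0.0149 and -0.0013. That of extended class I turned to -0.00612 percentage points with lists of equal length, and leaving out libraries in turn gave -5.94e-05 to 0.00667. That of class I turned to -0.00475 at a minimum −log10 q of 5, and without single libraries lay between -0.00108 and 0.0159. The covered share turned to -0.0134 at that minimum and lay between -0.0029 and 0.0131. NuMA-depleted-only members, 1, numbered 2 with 500 bp windows, 7 with calls in at least 2 of 3 libraries, and 1 to 7 without single libraries. Over all regions of the genome, 368 became 380 with 500 bp windows and 2967 with at least 2 of 3. Members found only in wild type, 0, numbered 6 with at least 2 of 3, and 0 to 5 without single libraries. Over all regions, 349 became 1677 with at least 2 of 3. Members called in all 6 libraries, 86, numbered 54 with lists of equal length, and over all regions the count fell from 17009 to 11798. The median percentile difference of class III was 3.18 with lists of equal length and -3.13 to 3.16 without single libraries. That of class II with flank was 1.5 at the minimum −log10 q, 7.68 with lists of equal length and -10.5 to 1.09 without single libraries. Each of these alternatives also changes which regions count as called in every library. The cause was not tested.

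The rank fit and the bin fit called 0 members and 0 MHC bins under every alternative run. Over all shared regions the rank fit called 1, 52 with ranks of −log10 q, and 0 under each of the other alternatives. The 4 members named from it kept their sign wherever they could be fitted, one of them at 0.62 in place of 1.09 without NuMA-depleted replicate 1, with adjusted p from 0.2001 to 0.832 by limma. Log2 differences of the bin from 28 Mb were -0.012 at the minimum −log10 q, -0.18 with lists of equal length and -0.052 to 0.096 without single libraries. Those of the bins from 30, 32 and 33 Mb lay between -0.14 and 0.038, -0.20 and 0.0023, and -0.22 and 0.016 without single libraries.

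Replicate numbers are shared by the groups, but same-numbered libraries did not deviate together (Pearson's r of -0.0771, 0.0923 and 0.00668 across 2022 bins, which are not independent). With a replicate block, 0 bins of the genome and 0 shared regions passed, against 0 and 1 without it, and 0 members passed in either.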
